A study of Homo sapiens with 8 samples.

Results

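The MCM family members are the genes whose symbol in the deposited expression table is MCM2, MCM3, MCM4, MCM5, MCM6, MCM7, MCM8, MCM9 or MCMBP, 9 of the 38148 genes listed there. All 9 passed the filter on low values, a mean level of 1 RPM or more, where RPM are reads on a gene relative to the library total. The table holds mRNA-seq values of HT29, a BRAF-mutant human colorectal cancer cell line. Cells were left untreated or exposed for 24 h to 1 μM selumetinib, an inhibitor of MEK, the kinase that activates ERK. They were then fixed with glyoxal, stained for cyclin B1 (CCNB1), a protein that accumulates as cells approach mitosis, and sorted by flow cytometry. Sorting into CCNB1-negative and CCNB1-positive cells gave 4 groups, an untreated and a selumetinib-treated one for each fraction, with 2 poly(A) libraries a group. All groups are of 1 cell line, and the labels do not say whether the 2 libraries of a group came from separate cultures, so p-values measure the spread between these libraries, which may be technical. The comparisons ask how MCM transcripts respond to MEK inhibition in cells that do and do not hold cyclin B1.

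MCM2 to MCM7 form the hexameric core of the replicative DNA helicase. The ring is loaded onto origins in G1 by the origin recognition complex with CDC6 and CDT1, and is switched on in S phase when CDC45 and the GINS complex join it. MCM8 and MCM9 are paralogues that work together as a helicase in homologous recombination, and MCMBP binds MCM subunits and assists in assembling and handling them. Transcription of the replicative MCM genes is known to be driven by E2F factors and to be low in resting cells.

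The sample labels contradict each other, and this bears on each value that follows. In each of the 8 libraries, title and description are at odds over the treatment and also over the fraction. The groups used here follow the descriptions, which are also the column names of the table. If the titles were followed instead, the 2 fractions would swap their selumetinib responses and each response would change sign, while the difference of the responses would be unchanged. CCNB1 mRNA stood at log2 values of 11.66 and 12.01 without and 13.79 and 14.05 with cyclin B1 protein in untreated cells. Under selumetinib the CCNB1-negative libraries had 7.92 and 7.22 and the CCNB1-positive ones 12.76 and 12.53, so CCNB1 mRNA was higher in the fraction that the descriptions call positive in both treatments. Of 8 feedback genes that ERK induces, 7 were called lower (limma, adjusted p under 0.05) in the libraries that the descriptions call treated, in each fraction. Of all genes tested, 35.8% were called lower in the CCNB1-negative and 27.3% in the CCNB1-positive fraction. The feedback gene left was called higher in the CCNB1-negative fraction (log2 change 0.72), and 1 was not called in the CCNB1-positive fraction.

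The depth was 12696860 to 23916160 reads on genes per library, and the members held from 143 reads (MCM5) to 12261 reads (MCM7) in a library. Replicates differed by more than sampling noise in every group, with a chi-square per gene of 15.6 to 30.2, and were kept apart. Markers of colorectal epithelium summed to between 6795 and 12960 RPM in the 8 libraries, and blood, fibroblast and endothelial markers to at most 5.61 RPM each. Mitochondrial transcripts took 4.44% to 7.80% of reads in untreated and 11.9% to 14.8% in treated libraries, and MALAT1 took 0.303% to 0.386% and 2.01% to 4.42%. These shares move with the treatment. When the libraries were scaled without these transcripts, MCM2 to MCM7 and MCMBP were still lower under selumetinib in both fractions and MCM8 in CCNB1-negative cells. A lower value in these bulk fractions can come from fewer cells that hold a transcript or from less of it per cell, which cannot be told apart.

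The 9 genes lie on 8 chromosomes, here with the GRCh38 positions of the deposited table and the exon numbers of GENCODE release 44, whose starts differ from the table's for MCM3 and MCM7. MCM2 (ENSG00000073111) lies on the plus strand of chromosome 3 from 127598410 to 127622436 and has 16 exons in its canonical transcript. MCM3 (ENSG00000112118) lies on the minus strand of chromosome 6 from 52264009 to 52284881 and has 17. MCM4 (ENSG00000104738), on the plus strand of chromosome 8 from 47960185 to 47978160, has 17, and MCM5 (ENSG00000100297), on the plus strand of chromosome 22 from 35400134 to 35425431, has 17. MCM6 (ENSG00000076003) lies on the minus strand of chromosome 2 from 135839626 to 135876443 and has 17. MCM7 (ENSG00000166508), which hosts the microRNA genes MIR25, MIR93 and MIR106B, lies on the minus strand of chromosome 7 from 100092728 to 100101940 and has 15. MCM8 (ENSG00000125885) lies on the plus strand of chromosome 20 from 5950652 to 5998977 and has 19, and MCM9 (ENSG00000111877) on the minus strand of chromosome 6 from 118813442 to 118935162 and has 14. MCMBP (ENSG00000197771) lies on the minus strand of chromosome 10 from 119829404 to 119892556 and has 16.

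Several members share exonic bases with a neighbouring gene. MCM8 shares 2564 exonic bases with ENSG00000286235, on the same strand and listed in the table as AL035461.3, which had 1657 to 3463 reads per library against 255 to 1406 for MCM8. Strand cannot separate these genes, so the values of MCM8 are uncertain to that extent. MCM7 shares 392 exonic bases with AP4M1 on the opposite strand, which had 487 to 898 reads, at most 30.8% of those of MCM7. MCM9 shares 205 with ASF1A, also on the opposite strand, which had 190 to 848 reads against 178 to 316 for MCM9. It shares 100 more with ENSG00000253194, again on the opposite strand, which had 60 to 184 reads, at most 75.1% of those of MCM9. The library kit keeps strand, but whether counting used it is not given in the sources used here. A gene opposite MCM2, ENSG00000285600, shares 1113 exonic bases with it and had 0 to 3 reads where MCM2 had 210 to 4787.

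Promoter sequence was looked up because the replicative MCM genes are known E2F targets. RefSeq windows (GRCh38.p14) of 300 bases, most of them upstream of a transcription start, were found for MCM2, MCM3, MCM6, MCM7, MCM8, MCM9 and MCMBP. The E2F forms searched were TTTCGCGC, TTTCCCGC, TTTGGCGC and TTTGCCGC on both strands. At least 1 stood in a window of 6 of these 7 genes, MCM9 being the exception, against 3.31% of 35116 windows over all genes. The count is by gene and the share by window, and a gene with several windows has more places for a match. MCM7 had a match in 1 of its 3 windows and MCMBP in 1 of its 2. The matching stretches of MCM2 (chr3:127598351-127598430, plus strand), MCM3 (chr6:52284723-52284932, minus), MCM6 (chr2:135876424-135876613, minus), MCM7 (chr7:100101378-100101597, minus) and MCM8 (chr20:5950661-5950690, plus) are printed 5′ to 3′ with the matches in capitals, and the bases around the MCM9 start (chr6:118935140-118935259, minus) stand beside them for contrast:
MCM2: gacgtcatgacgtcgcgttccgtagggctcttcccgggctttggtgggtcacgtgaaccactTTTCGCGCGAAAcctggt
MCM3: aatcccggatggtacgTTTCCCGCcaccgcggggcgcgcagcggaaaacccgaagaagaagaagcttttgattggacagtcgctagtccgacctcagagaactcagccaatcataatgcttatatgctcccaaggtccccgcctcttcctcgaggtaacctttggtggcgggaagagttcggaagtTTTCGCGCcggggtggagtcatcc
MCM6: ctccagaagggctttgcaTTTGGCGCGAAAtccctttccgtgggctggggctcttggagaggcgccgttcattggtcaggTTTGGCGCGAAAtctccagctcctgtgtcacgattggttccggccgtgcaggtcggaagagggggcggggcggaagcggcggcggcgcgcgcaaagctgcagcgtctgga
MCM7: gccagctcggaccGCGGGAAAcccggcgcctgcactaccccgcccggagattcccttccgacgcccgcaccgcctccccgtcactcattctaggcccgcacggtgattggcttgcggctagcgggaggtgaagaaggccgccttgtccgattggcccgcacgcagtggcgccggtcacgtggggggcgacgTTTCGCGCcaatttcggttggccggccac
MCM8: gaagttggatcactgaaGCGCCAAAaaaga
MCM9: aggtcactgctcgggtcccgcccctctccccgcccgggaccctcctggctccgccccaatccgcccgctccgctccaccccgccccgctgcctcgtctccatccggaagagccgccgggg

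In MCM2 and at both places in MCM6, a match on each strand overlaps the other, which makes the capital run longer than 8 letters. CCAAT, searched on both strands, stood in a window of MCM3, MCM6, MCM7, MCM8 and MCM9 and in 34.6% of all windows, and in MCM7 1 of its copies overlaps the last E2F match by 1 base. The letters TTTGAA of the CHR element, found in 15.2% of all windows, were in none of the members' windows. A match describes letters in a window and is no evidence of binding.

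Transcript levels were compared between genes only per length, as RPKM over the union of a gene's exons. In untreated CCNB1-negative cells the level was highest for MCM7, at 114.1 ± 2.96 RPKM (SD, n = 2), followed by MCM3 at 100.2 ± 7.27. MCM2 (49.7 ± 5.19) and MCM6 (49.0 ± 7.69) overlapped between libraries. MCM4 followed at 29.6 ± 1.95 RPKM, then MCM5 at 23.8 ± 0.917 and MCMBP at 22.2 ± 3.83, which overlapped. MCM8 (7.90 ± 0.546) and MCM9 (1.19 ± 0.0792) were the lowest. The recombination paralogues were thus the least abundant of the family in these cells. With the length of the canonical transcript in place of the exon union, the mean of MCM4 came next after that of MCM3, at 71.8 RPKM. The exon union of MCM4 is 9852 bases and its canonical transcript 4062. Its libraries, at 68.4 and 75.1 RPKM, overlapped those of MCM2, at 63.2 and 73.2. By canonical transcript length MCMBP, at 31.5 RPKM, lay below every replicative subunit, the lowest being MCM5 at 50.1.

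Under selumetinib the order in CCNB1-negative cells changed. MCM7 stayed first at 34.7 ± 0.972 RPKM (SD, n = 2) and MCM3 second at 8.22 ± 0.846, but MCMBP (5.93 ± 0.493) now stood above MCM2 (3.46 ± 0.424) and MCM6 (3.10 ± 0.0762). MCM8 (2.38 ± 0.287) and MCM4 (2.31 ± 0.380) overlapped, and MCM5 (1.61 ± 0.303) and MCM9 (1.24 ± 0.210) differed by about their spread. With canonical transcript length MCM4, at 4.94 and 6.25 RPKM in the 2 libraries, stood above MCM8, at 2.24 and 2.65, and MCM5 (3.38) and MCM9 (2.97) were again close, although MCM5 had been far above MCM9 in untreated cells.

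The values in each library are log2 of reads scaled to the largest library. MCM2 stood at 12.34 and 12.55 in untreated CCNB1-negative, 11.50 and 11.58 in untreated CCNB1-positive, 8.73 and 8.48 in treated CCNB1-negative and 10.01 and 10.07 in treated CCNB1-positive cells. MCM3 had 13.02 and 13.17, 12.16 and 12.16, 9.59 and 9.38, and 10.33 and 10.52 in the same order of groups. For MCM4 the values were 12.70 and 12.83, 11.87 and 11.91, 8.91 and 9.25, and 10.26 and 10.69. The groups of these 3 genes did not overlap and took 1 order: untreated CCNB1-negative highest, then untreated CCNB1-positive, treated CCNB1-positive and treated CCNB1-negative. MCM5 followed the same order with 12.05 and 11.98, 10.54 and 10.49, 8.31 and 7.92, and 9.27 and 9.36. So did MCM6 with 12.07 and 12.39, 10.66 and 10.77, 8.24 and 8.29, and 8.82 and 8.88. MCM7 had 13.70 and 13.75, 13.31 and 13.35, 12.03 and 11.98, and 12.18 and 12.27, again in that order but over a narrower range.

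Outside the hexamer the pattern was less uniform. MCM8 stood at 10.57 and 10.43 in untreated CCNB1-negative, 10.28 and 10.29 in untreated CCNB1-positive, 8.64 and 8.89 in treated CCNB1-negative and 9.66 and 9.98 in treated CCNB1-positive cells, so that only the treated CCNB1-negative libraries were far from the rest. MCM9 had 8.40 and 8.54, 8.01 and 8.04, 8.35 and 8.70, and 8.47 and 8.13, and its treated and untreated values lay within 1 narrow range. MCMBP had 11.44 and 11.80, 11.13 and 11.27, 9.64 and 9.81, and 10.05 and 10.12, with the groups in the order of the replicative genes.

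**Figure D1:**
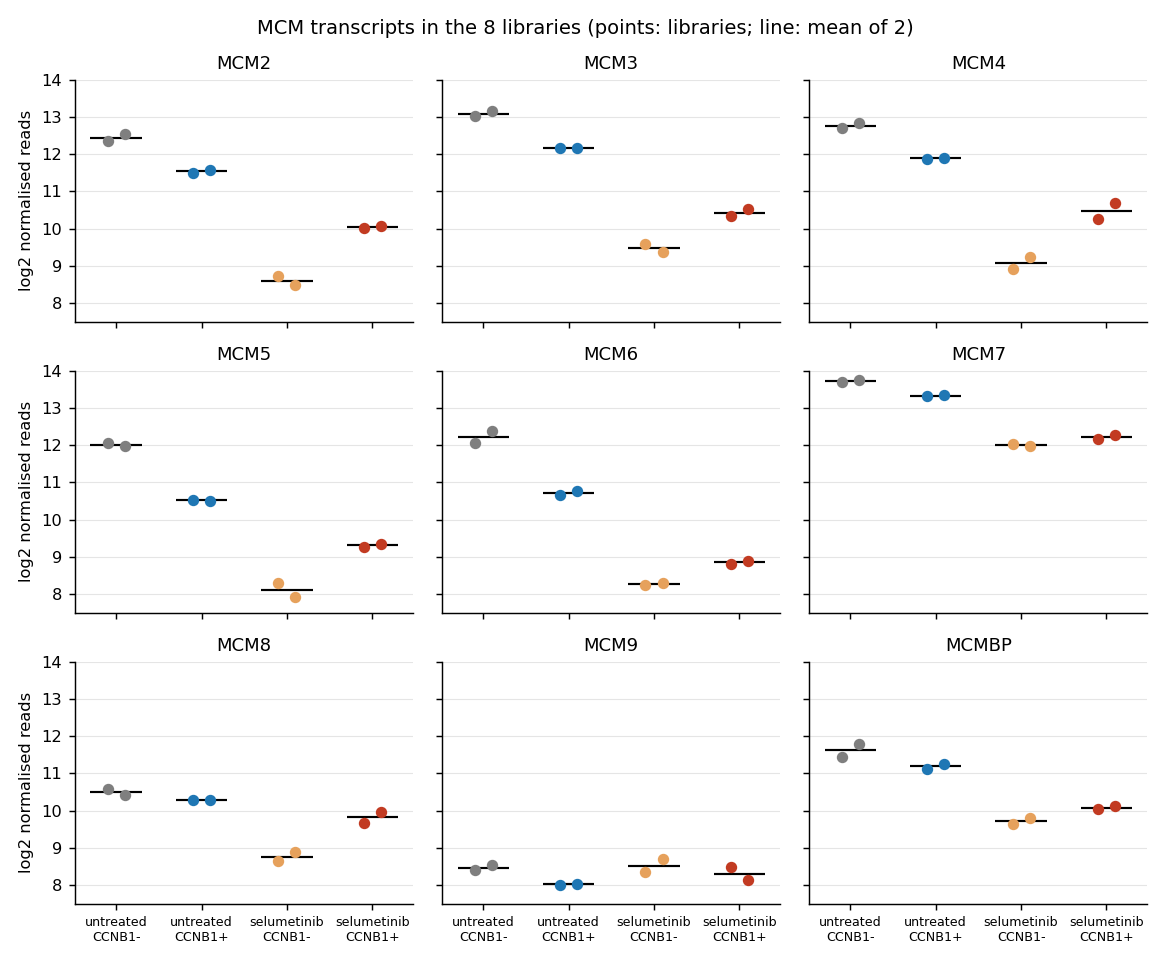
Log2 normalised reads (vertical axis) of each of the 9 MCM members in the 4 groups (horizontal axis), with 1 point per library and a line at the mean of 2. MCM2 to MCM6 fall lowest in the treated CCNB1-negative libraries, MCM7 keeps values of at least 11.98 there, and MCM9 lies between 8.01 and 8.70 in all libraries.

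In CCNB1-negative cells, selumetinib lowered all 6 replicative MCM transcripts together with MCM8 and MCMBP, and MCM9 did not pass the test. These 8 of 9 members were called lower (limma, adjusted p under 0.05), where 35.8% of the 14219 genes tested were called lower and 74.1% in either direction. MCM6 was lower by 15.7-fold (log2 change -3.97 ± 0.15 SE, adjusted p 7.2e-10). MCM5 was lower by 14.9-fold, MCM2 by 14.4-fold, MCM4 by 12.9-fold and MCM3 by 12.2-fold, with adjusted p of at most 1.5e-09. The 95% intervals of these 5 overlapped, and MCM5 had a larger change than MCM6 without treated CCNB1-negative replicate 1 (log2 changes -4.09 and -3.95). MCM7 was lower by 3.29-fold (log2 change -1.72 ± 0.14 SE, adjusted p 1.7e-07), and its 95% interval of -2.03 to -1.41 lay apart from those of MCM2 to MCM6, of which the nearest, that of MCM3, ended at -3.30. MCM8 was lower by 3.33-fold (log2 change -1.74 ± 0.16 SE, adjusted p 4.1e-07) and MCMBP by 3.71-fold (log2 change -1.89 ± 0.16 SE, adjusted p 1.4e-07), both near MCM7. For MCM9 the log2 change was 0.06 with a 95% interval of -0.37 to 0.48 (adjusted p 0.81). The median over MCM2 to MCM7 was -3.77 and that over MCM8, MCM9 and MCMBP was -1.74, against 0.05 over all genes tested. AL035461.3, which shares bases with MCM8, had a log2 change of -0.45 (adjusted p 0.0093), and AP4M1, opposite MCM7, of 0.81 (adjusted p 2.3e-04). ASF1A, opposite MCM9, was lower in both fractions, with log2 changes of -1.36 and -0.76 (adjusted p 1.3e-05 and 0.0023).

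In CCNB1-positive cells the same 8 members were lower under selumetinib, where 27.3% of genes were called lower and 65.3% in either direction, and the changes were smaller. MCM6 was lower by 3.63-fold (log2 change -1.86 ± 0.15 SE, adjusted p 5.2e-07) and MCM3 by 3.34-fold. MCM2, MCM4, MCM5 and MCM7 were lower by 2.83-fold, 2.66-fold, 2.30-fold and 2.15-fold, with adjusted p of at most 2.1e-05. MCM7 thus lay nearer the other subunits here, its 95% interval of -1.41 to -0.79 overlapping those of MCM2, MCM4 and MCM5. It did not overlap those of MCM3 (-2.05 to -1.43) and MCM6 (-2.19 to -1.53). With quantile normalization the log2 change of MCM7 was -0.67, against -1.93 to -1.22 for MCM2 to MCM6. MCMBP was lower by 2.17-fold (log2 change -1.12 ± 0.16 SE, adjusted p 3.4e-05). MCM8 was lower by 1.38-fold (log2 change -0.47 ± 0.16 SE, adjusted p 0.020). That call was not past the threshold without untreated CCNB1-positive replicate 1 (adjusted p 0.071) or 2 (0.090) or treated CCNB1-positive replicate 1 (0.20), nor by limma-voom on the recovered reads (0.052). MCM9 had a log2 change of 0.28 with a 95% interval of -0.14 to 0.70 (adjusted p 0.22). Its direction in both fractions turned with the scaling, and it was called higher here (0.53, adjusted p 0.030) only, among the alternatives tried, with scaling to nuclear reads without MALAT1, under which MCM8 was not called (adjusted p 0.27). The median was -1.46 over MCM2 to MCM7, -0.47 over MCM8, MCM9 and MCMBP, and 0.17 over all genes.

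Between the untreated fractions, MCM2 to MCM6 were lower in CCNB1-positive cells and the other members were not called. These 5 of 9 compare with 1.51% of genes called lower and 2.87% in either direction. MCM6 was lower by 2.86-fold (log2 difference -1.52 ± 0.15 SE, adjusted p 3.3e-05) and MCM5 by 2.83-fold (log2 difference -1.50 ± 0.16 SE, adjusted p 5.0e-05). MCM3, MCM2 and MCM4 were lower by 1.90-fold, 1.87-fold and 1.84-fold, with adjusted p of 0.0018, 0.0026 and 0.010. The calls of MCM2 and MCM4 were lost without untreated CCNB1-negative replicate 2 (adjusted p 0.050 and 0.088), which left 3 members called, and that of MCM4 also without untreated CCNB1-positive replicate 2 (0.062). MCM7 had a log2 difference of -0.40 (95% interval -0.71 to -0.09, adjusted p 0.21), MCMBP of -0.42 (-0.76 to -0.09, adjusted p 0.21), MCM9 of -0.45 (-0.87 to -0.03, adjusted p 0.33) and MCM8 of -0.22 (-0.56 to 0.13, adjusted p 0.66). With a block for each pair of fractions that share a treatment and a replicate number, an alternative chosen after seeing the data, MCM7 and MCMBP were called lower (adjusted p 0.011 and 0.0073). Over all genes this block called 1923, against 408 without it.

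Between the selumetinib-treated fractions the difference had the opposite direction. MCM2 to MCM6 and MCM8 were higher in CCNB1-positive cells, 6 of 9 members, where 13.8% of genes were called higher and 21.6% in either direction. MCM2 was higher by 2.71-fold (log2 difference 1.44 ± 0.15 SE, adjusted p 9.0e-06), MCM4 by 2.63-fold, MCM5 by 2.30-fold and MCM3 by 1.92-fold, with adjusted p of at most 4.5e-04. MCM8 was higher by 2.07-fold (log2 difference 1.05 ± 0.16 SE, adjusted p 4.4e-04). MCM6 was higher by 1.51-fold (log2 difference 0.59 ± 0.15 SE, adjusted p 0.015), and this call was lost without treated CCNB1-negative replicate 2 (adjusted p 0.051), treated CCNB1-positive replicate 1 (0.070) or treated CCNB1-positive replicate 2 (0.084). The log2 difference was 0.22 for MCM7 (95% interval -0.09 to 0.53, adjusted p 0.29), 0.35 for MCMBP (0.02 to 0.69, adjusted p 0.12) and -0.22 for MCM9 (-0.64 to 0.20, adjusted p 0.43). MCMBP was called with the block for pairs of fractions (adjusted p 0.0066), under which 6671 genes were called, against 3077 without it.

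The treatment response itself differed between the fractions for MCM2 to MCM6 and MCM8, tested by the interaction term of the same model. All 6 were lowered less in CCNB1-positive than in CCNB1-negative cells, where 4.99% of genes had a more positive response in CCNB1-positive cells and 5.33% differed in either direction. The difference of the log2 changes was 2.70 ± 0.22 (SE) for MCM5, with an adjusted p of 4.9e-06. It was 2.34 for MCM2, 2.28 for MCM4, 2.11 for MCM6 and 1.87 for MCM3, with adjusted p of at most 3.9e-05, and 1.27 ± 0.23 (SE) for MCM8, with an adjusted p of 0.0033. MCMBP had a difference of 0.78 (95% interval 0.30 to 1.25, adjusted p 0.059), MCM7 of 0.62 (0.18 to 1.06, adjusted p 0.11) and MCM9 of 0.23 (-0.37 to 0.82, adjusted p 0.68). With the block for pairs of fractions MCMBP and MCM7 were also called (adjusted p 5.4e-04 and 0.0032), and a block for the number alone added MCMBP (adjusted p 0.027). Over all genes these blocks called 3850 and 883, against 758 without a block.

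**Figure D2:**
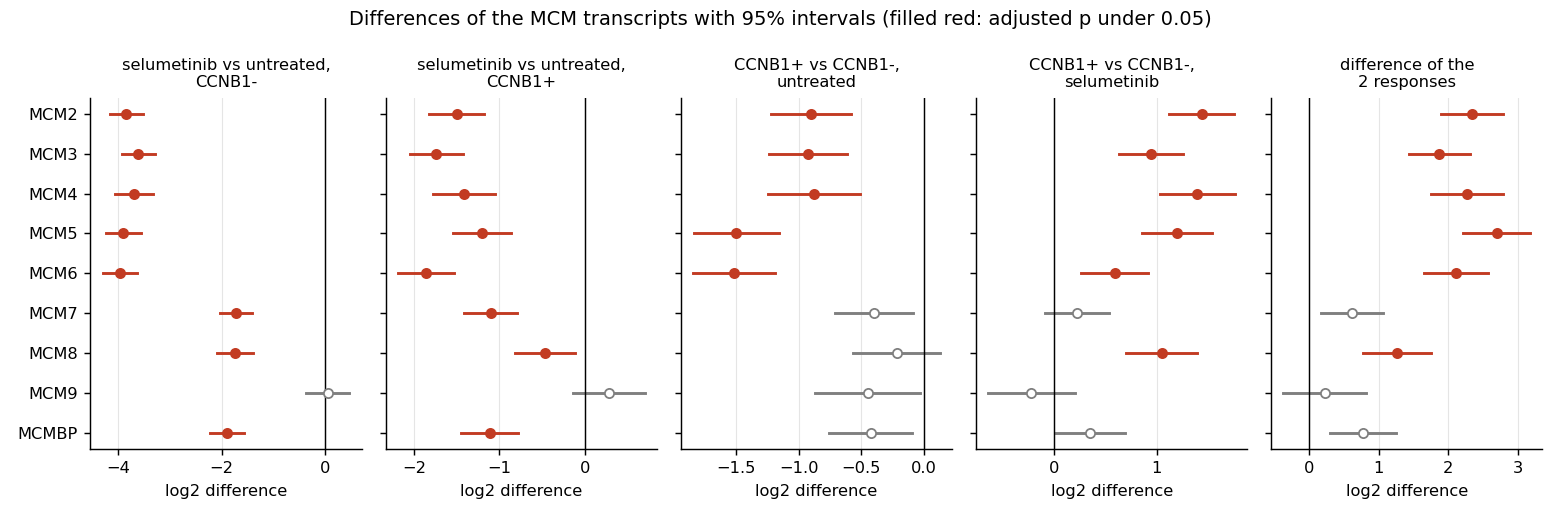
Log2 difference (horizontal axis) with its 95% limma interval for each of the 9 members (vertical axis) in the 5 comparisons, filled red where the adjusted p was under 0.05 and open grey otherwise. In this model without a block, MCM2 to MCM6 are called in all 5 panels, MCM7 and MCMBP only in the 2 treatment panels, and the interval of MCM9 includes 0 in 4 of the 5 panels.

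The balance among the 6 replicative transcripts does not move with the scaling of the libraries, since it is a ratio within each one. Of the MCM2 to MCM7 reads per kilobase of exon, MCM7 made up 32.1% and 30.3% in untreated CCNB1-negative libraries, and 41.8% and 41.9% in their CCNB1-positive counterparts. Under selumetinib its share was 64.5% and 65.5% in the CCNB1-negative fraction, and the CCNB1-positive one had 51.2% and 49.9%. The 4 groups did not overlap. MCM7 held more than all other subunits together in treated CCNB1-negative cells, and about as much as them in treated CCNB1-positive cells. With canonical transcript lengths the mean shares were higher, at 38.8%, 50.0%, 72.2% and 57.9%, in the same order of groups.

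The shares of the other subunits moved unequally. The mean share of MCM6 was 13.3 ± 1.22% (SD, n = 2) in untreated and 5.82 ± 0.370% in treated CCNB1-negative cells, and that of MCM5 was 6.52 ± 0.680% and 3.01 ± 0.451%. MCM2 went from 13.5 ± 0.523% to 6.47 ± 0.542% and MCM3 from 27.3 ± 0.182% to 15.4 ± 0.984%. In CCNB1-positive cells the shares of MCM2 (12.8 ± 0.265% untreated, 11.7 ± 0.406% treated) and MCM4 (7.76 ± 0.00268% and 7.60 ± 1.10%) were closer together, while those of MCM3 (25.4 ± 0.446% and 19.7 ± 0.496%) and MCM6 (8.20 ± 0.272% and 5.85 ± 0.200%) were lower in treated cells. MCM5 went the other way there, with 4.06 ± 0.167% in untreated and 4.58 ± 0.0932% in treated cells. These shares are described without a test, since they are scores over the members.

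**Figure D3:**
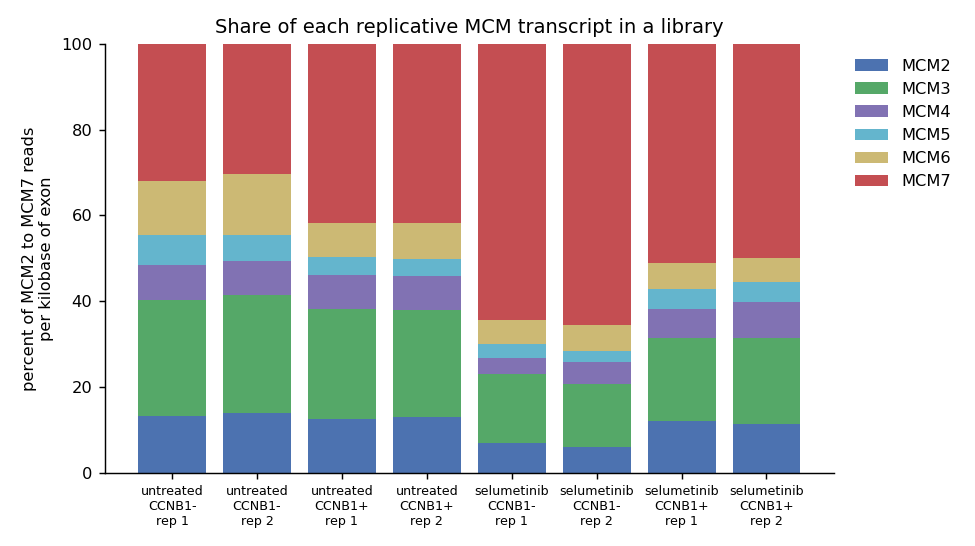
Share of each replicative MCM transcript in the sum of MCM2 to MCM7 reads per kilobase of exon (vertical axis, percent) in each of the 8 libraries (horizontal axis). The share of MCM7 runs from 30.3% in an untreated CCNB1-negative library to 65.5% in a treated CCNB1-negative library.

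The replicative set was set against each other member by the mean log2 value of MCM2 to MCM7 minus that of the other gene in each library. Against MCM9 in the CCNB1-negative fraction it was 4.25 and 4.24 untreated and 0.95 and 0.52 treated, a change of -3.51. In CCNB1-positive cells it was 3.67 and 3.67 untreated and 1.67 and 2.17 treated, a change of -1.75. Against MCM8 the change was -1.72 in the CCNB1-negative and -1.004 in the CCNB1-positive fraction. Against MCMBP it was -1.56 and -0.35, and the values in the treated CCNB1-negative libraries, -0.34 and -0.60, were the only ones below 0. The mean of the replicative transcripts was thus lower relative to each of the others in treated cells of both fractions, least so relative to MCMBP in CCNB1-positive cells. MCM7 by itself was not lower relative to MCMBP, with log2 changes of -1.72 and -1.10 beside -1.89 and -1.12, nor relative to MCM8 in the CCNB1-negative fraction (-1.74). No test was made of these differences between genes.

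Within the hexamer, MCM7 was also the least like the rest by profile. The root mean square difference between a gene's log2 values and the mean of MCM2 to MCM7, each centred on its own mean over the 8 libraries, was 0.12 for MCM3, 0.21 to 0.22 for MCM2, MCM4 and MCM5, 0.32 for MCM6 and 0.63 for MCM7. It was 0.57 for MCMBP, 0.75 for MCM8 and 1.41 for MCM9. By this measure, which counts the size of a change as well as its pattern, MCMBP was nearer to the replicative mean than MCM7 was. MCM7 itself enters that mean. Pearson correlation with the mean, which leaves out the size, was alike for both, at 0.9846 for MCM7 and 0.9844 for MCMBP.

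The genes outside the family with the smallest such difference from the MCM2 to MCM7 mean, among 12309 genes with a symbol and over 8 libraries, were PAQR4 (0.17), RFC2 (0.22), MCM10 (0.23), ORC1 (0.23), EXO1 (0.23), CDC45 (0.26), PCNA (0.27) and RPP40 (0.28). MCM8 was most like RAD18 (0.06), MASTL (0.10) and EBP (0.12). MCM9 was nearest to CKAP4 (0.09), ZBTB25 (0.10) and ZNF510 (0.10), and MCMBP to PSMA6 (0.09), GMPS (0.10) and NUP155 (0.10). These libraries share 4 groups, so likeness here mainly means a like pattern and a like size of change over those groups.

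The other genes that load, activate and handle the helicase were taken as a list of 37, all of which were tested. Selumetinib lowered 34 of them and raised 2 in the CCNB1-negative fraction, while it lowered 20 and raised 2 in the CCNB1-positive one, with medians of -2.12 and -0.49 on the log2 scale. Between untreated fractions 10 were lower and 2 higher in CCNB1-positive cells, whereas between treated fractions 29 were higher and 0 lower. The responses differed for 28, all of them less negative or more positive in CCNB1-positive cells, and the median difference was 1.74 against 0.11 over all genes. Of all genes tested, 35.8% and 27.3% were called lower under selumetinib in the 2 fractions, and 38.2% and 38.0% higher. Between untreated fractions 1.51% were lower and 1.36% higher in CCNB1-positive cells, and between treated fractions 13.8% were higher and 7.87% lower there. The response was more positive in CCNB1-positive cells for 4.99% and more negative for 0.345%. The higher genes under treatment, named after their values were seen, were ORC2 (log2 change 0.50) and MCMDC2 (0.70) in the CCNB1-negative fraction, and DBF4B (0.62) and MCMDC2 (1.12) in the other. MCMDC2 encodes an MCM-domain protein known from meiotic recombination.

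Among 9 loading genes, 7 were lower and 1 higher under selumetinib in the CCNB1-negative fraction, against 6 lower and 0 higher in the other. Over all genes 35.8% and 27.3% were called lower in these fractions. CDC6, which brings the MCM ring to the origin recognition complex, had log2 changes of -4.46 and -1.45 in the 2 fractions and an interaction of 3.01. CDT1, its partner in loading, had -2.89 and -0.55 with an interaction of 2.33, and all of these values passed the test. GMNN, the inhibitor of CDT1, was lower in CCNB1-negative cells (log2 change -1.14), with a change of -0.34 that missed the threshold in the CCNB1-positive fraction (adjusted p 0.094).

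All 14 activation genes were lower under selumetinib in the CCNB1-negative fraction, where 35.8% of all genes were called lower. In the CCNB1-positive fraction 5 were lower and 1 higher, where 27.3% of all genes were called lower and 38.0% higher. All 14 were higher in CCNB1-positive than in CCNB1-negative treated cells, against 13.8% of all genes. MCM10, which helps to switch on the helicase, had log2 changes of -3.999 and -1.40, close to those of MCM2 to MCM6, and an interaction of 2.60. CDC7 and DBF4, the kinase and its regulatory subunit that phosphorylate the MCM ring, were lower in CCNB1-negative cells (-2.00 and -2.04). Their changes of -0.31 and -0.48 in the CCNB1-positive fraction missed the threshold (adjusted p 0.10 and 0.059).

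Of 14 partners and handlers, 13 were lower and 1 higher in the CCNB1-negative fraction, against 9 and 1 in the other. The shares of all genes called lower were 35.8% and 27.3%. HROB, which recruits the MCM8 and MCM9 helicase, was lower in CCNB1-negative cells (log2 change -2.02), where MCM8 was lower and MCM9 was not called. In CCNB1-positive cells its change was 0.40 (adjusted p 0.17), and the interaction of 2.42 passed the test. MCM3AP, which binds and acetylates MCM3, had changes of -0.38 and -0.40 (adjusted p 0.026 and 0.022) and an interaction of -0.02 (95% interval -0.45 to 0.40).

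**Figure D4:**
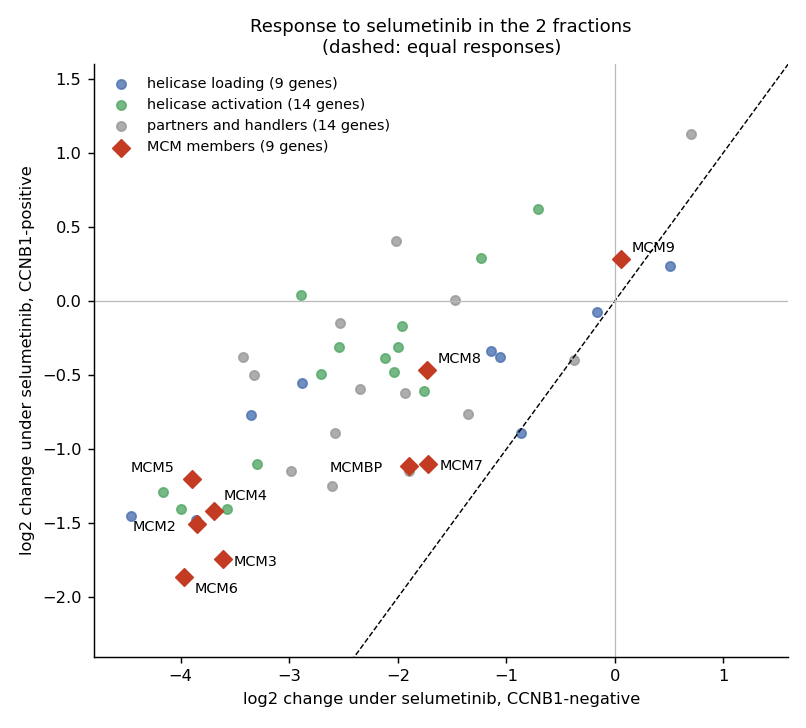
Log2 change under selumetinib in the CCNB1-negative (horizontal axis) and the CCNB1-positive fraction (vertical axis) for the 9 members (red diamonds) and the 37 other genes of helicase loading, activation and handling (circles), with a dashed line at equal responses. MCM2 to MCM6 lie toward the left, between -3.97 and -3.61, and MCM7 and MCMBP lie together near -1.7 to -1.9. Some circles lie further left than any member, such as CDC6 at -4.46.

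The summed level of S phase markers followed the order of the groups for MCM2 to MCM7, and that of G2 and M phase markers did not. The summed level of 5 S phase genes was 1088 to 1179 RPM in untreated CCNB1-negative, 664 to 726 RPM in untreated CCNB1-positive, 84.0 to 89.7 RPM in treated CCNB1-negative and 328 to 377 RPM in treated CCNB1-positive libraries, which is the order of the groups for MCM2 to MCM7. The summed level of 10 G2 and M phase genes was 977 to 1110, 4283 to 4741, 109 to 146 and 3293 to 3402 RPM in the same groups. None of the 15 genes was at 0 in any group. Taken singly, not all 5 S phase genes had the order of their sum. In CCNB1-positive cells selumetinib lowered 4 of them (27.3% of all genes), and the highest log2 change was 0.08. Between untreated fractions 3 were called lower in CCNB1-positive cells (1.51% of all genes). Between treated fractions 4 were called higher there (13.8% of all genes). The part of a different mix of phases in the MCM differences was not tested.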

How the data were processed

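HT29 mRNA-seq libraries, 8 in all, were analysed. Trimming with Trim Galore 0.5.0, alignment against GRCh38 by HISAT2 2.1.0 and gene quantification in SeqMonk 1.47.0 were done by the authors. The authors deposited log2 values, each library scaled by its total reads, and tested with DESeq2. The annotation release and strand setting of this table are not given in the sources used here. The growth medium named by the labels differs from that in the methods. All 8 value columns were used. After removal of 1 constant per library, 100% of the nonzero values were whole reads (within 0.01%). Genes without a read stood at 0.9 reads. Reads carry no molecular identifiers, so they give counting error only.

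Genes whose mean log2 value reached that of 1 RPM were tested with limma 3.58.1 in R 4.3.3 on the deposited log2 values. The fit used a mean-variance trend, 4 group means and no covariate. Benjamini-Hochberg adjustment was over 14219 genes, with calls at an adjusted p under 0.05. Lists, shares and figures used Python 3.11.15, pandas 2.3.3, numpy 2.4.6 and matplotlib 3.10.9. RPKM used reads on genes and exon lengths of GENCODE release 44, which held 99.31% of the table's identifiers. HROB was matched by identifier. The fit was tested on simulated data.

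Named genes are all 9 members, 8 fixed genes of the helicase list, and the nearest profiles (8 for the MCM2 to MCM7 mean, 3 for each other member). Members and lists were chosen with earlier results of these data known. Alternatives were an adjusted p of 0.01, no filter, a filter of 10 RPM, a block on the replicate number, a pseudocount of 0.1 RPM, quantile normalization, only the groups compared, a 2-fold requirement, limma-voom on recovered reads, canonical transcript length, and leaving out each library. Added after seeing the data were scaling by nuclear reads other than MALAT1, median-ratio scaling, and a block that ties together both fractions of 1 treatment with 1 replicate number.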

Additional observations from a re-analysis of the deposited data

Results flagged for a closer look

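The response to selumetinib differed between the CCNB1-positive and CCNB1-negative fractions for 6 members, by the interaction term of the limma model adjusted over all genes tested. The difference, on the log2 scale and as CCNB1-positive minus CCNB1-negative, was 2.70 (MCM5), 2.34 (MCM2), 2.28 (MCM4), 2.11 (MCM6), 1.87 (MCM3) and 1.27 (MCM8). Each of the 6 had a negative log2 change in both fractions, so the estimated responses differed in size and not in direction. For MCM8 the change in CCNB1-positive cells was small (-0.47, adjusted p 0.020). It was not called with scaling to nuclear reads without MALAT1 (-0.22, adjusted p 0.27). With 2 libraries a group, no group was large enough to be searched for a library that stands apart.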

How the results depend on the processing

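Of 423 results recomputed under alternatives other than leaving out a library, 409 kept their direction and their side of the threshold, 2 fell below it, 7 passed it and 5 changed sign. Of 360 with a library left out, 348 kept both, 9 fell below, 1 passed and 2 changed sign. Both tallies include settings under which a log2 change cannot move. These are the filters, the blocks, the use of only the groups compared, and leaving out a library of a group not compared. There only the side of the threshold could change. All changes of sign were of MCM9, which was not called in any of them. Its log2 change in CCNB1-negative cells was -0.076 with quantile normalization, -0.20 with median-ratio scaling, -0.01 without untreated CCNB1-negative replicate 1 and -0.12 without treated CCNB1-negative replicate 2, in a range of -0.12 to 0.23 over all libraries left out. In CCNB1-positive cells it was -0.16 with quantile normalization and -0.062 with median-ratio scaling, and its interaction was -0.086 with quantile normalization. Scaling to nuclear reads without MALAT1 gave 0.53 (adjusted p 0.030) for MCM9 and -0.22 (adjusted p 0.27) for MCM8 in CCNB1-positive cells. The other alternatives gave MCM8 there adjusted p between 5.1e-04 and 0.20. The median of all genes in CCNB1-negative and CCNB1-positive cells, 0.05 and 0.17, became -0.21 and -0.18 with median-ratio scaling and 0.36 and 0.42 with nuclear scaling. Relative to that median the change of MCM8 in CCNB1-positive cells was -0.63 and that of MCM9 0.11. Median-ratio scaling called 4580 genes higher and 6103 lower in CCNB1-negative cells, against 5438 and 5092, and 3923 and 5663 in CCNB1-positive cells, against 5400 and 3888. With the threshold unchanged, the genes called numbered 224 to 1923 between untreated fractions (408 as reported), 1156 to 6671 between treated fractions (3077) and 489 to 3850 in the interaction (758), each highest with the block for pairs of fractions. An adjusted p of 0.01 left 217, 1338 and 426, and a 2-fold requirement 255, 908 and 621.

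The number of members called between untreated fractions was 2 (MCM5 and MCM6) with a 2-fold change required and 3 to 5 with a library left out. With a library left out, the other counts ranged from 8 to 8, 7 to 8, 5 to 6 and 6 to 7 for the CCNB1-negative response, the CCNB1-positive response, the treated fractions and the interaction. Between treated fractions 4 members were called with a 2-fold change required. With quantile normalization the change of the replicative mean in CCNB1-positive cells was -0.88 against MCM8 and -1.17 against MCM9. Canonical transcript length moved the share of MCM7 to 38.8%, 50.0%, 72.2% and 57.9%.

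Libraries with the same replicate number deviated together across genes within a treatment (correlation 0.35 untreated, 0.43 treated) and not between treatments (-0.09 to 0.08). The labels give no shared origin for a number. With the replicate number as a block, 8, 8, 5, 6 and 7 members were called in the 5 comparisons, MCMBP being added to the interaction (adjusted p 0.027), and no other call of a member changed. MCMBP was also added there without untreated CCNB1-negative replicate 1 (adjusted p 0.031). A block for each pair of fractions added MCM7 and MCMBP between untreated fractions (adjusted p 0.011 and 0.0073) and in the interaction (0.0032 and 5.4e-04), and MCMBP between treated fractions (0.0066), giving 7 calls between untreated fractions, 8 in the interaction and 7 between treated fractions. Over all genes the calls in these comparisons rose from 408, 758 and 3077 to 1923, 3850 and 6671. The cause of these changes was not tested.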
